A study of Homo sapiens with 6 samples.

Results

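The baseline transcriptome of mock HuCCT1 cells was described from the 3 arrays titled as mock, of the 6 arrays of the series. Their titles end in p4, p5 and p6, which the labels do not explain (p may stand for a passage, a plate or a replicate), and they are called arrays 4, 5 and 6 here. HuCCT1 is an established cell line from a human bile duct cancer, or cholangiocarcinoma, and the mock cells carried the empty vector that served as control for a stable overexpression line. They were grown in RPMI1640 medium with fetal bovine serum, and total RNA was taken with a column kit and read on single-colour Illumina bead arrays. The labels do not say whether the arrays came from separate cultures, nor whether the mock line was 1 clone or a pool, so the spread given below may be technical or, if p stands for passage, may hold differences between passages. The other 3 arrays, labelled as overexpressing WTAP, entered only a check of the labels and 1 alternative normalization. That these 3 arrays are the mock ones rests on the labels alone: the brightest WTAP probe read 1123, 1050 and 1018 on the arrays labelled WTAP and 1019, 1124 and 1060 on the mock arrays, and the ranges overlapped.

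Bile ducts are lined by cholangiocytes, polarised epithelial cells that modify bile by secreting bicarbonate and water. They are set apart from hepatocytes by the keratins KRT7 and KRT19, by the adhesion molecule EPCAM and by the transcription factor SOX9, and their apical face carries chloride, bicarbonate and bile acid transporters. Cancers of this epithelium usually keep the simple keratins while gaining growth factor signalling, inflammatory cytokines and, in part, mesenchymal genes such as vimentin (VIM).

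A bead signal is the fluorescence of a probe in arbitrary units, and the values here were not normalized between arrays unless a log2 level is named. A probe was called detected on an array when the detection p-value of the deposited table, computed against control probes without a target, was under 0.05. A gene was called detected when at least 1 of its probes was. Of 19432 genes with a probe, 10798 were detected on 3 of 3 arrays, which is 55.6%, 1855 on 1 or 2 arrays, and 6779 on none, which is 34.9%. Single arrays detected 11541, 11948 and 11540 genes, with median probe signals of 191.4, 202.1 and 202.6 on arrays 4, 5 and 6. The lowest detected signal was 178.4 to 190.2. Ranks are percentiles of a gene's brightest probe among all 19432 genes. Since brightness also depends on the probe, they order signals and not transcript numbers. Detection on no array is likewise a statement about probes. The ribosomal protein gene RPL10, the disulfide isomerase PDIA3 and HLA-C, which most cells use, were among the genes detected on no array.

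The brightest genes were those of translation, the cytoskeleton and iron storage. ANXA2, a calcium-dependent membrane binding protein, read 63009, 58924 and 63957 on arrays 4, 5 and 6 and stood highest by mean log2 level (15.91 ± 0.07, SD, n = 3). The elongation factor EEF1A1 read 59892, 60622 and 64607, and the ferritin light chain FTL read 60132, 62260 and 61834. All 3 arrays therefore held these genes at the upper end of the scale, where signals are compressed. Of the 25 brightest genes 16 had symbols beginning with RPL or RPS, among them RPL41, RPS29, RPS12 and RPL19. The remainder held the actins ACTB and ACTG1, the tubulins TUBA1A and TUBA1C, and profilin (PFN1), which binds actin monomers. RPS2P40 and RPSA2, which are counted in the 16, and PPIAL4A of the remainder are near-identical copies of abundant genes that a probe may not tell apart. Signals of the 25 ran from 53425 to 64607, and no SD exceeded 0.13 on the log2 scale. The 100 brightest genes of each array shared 90 members, out of 110 that appeared in any array's list.

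**Figure D1:**
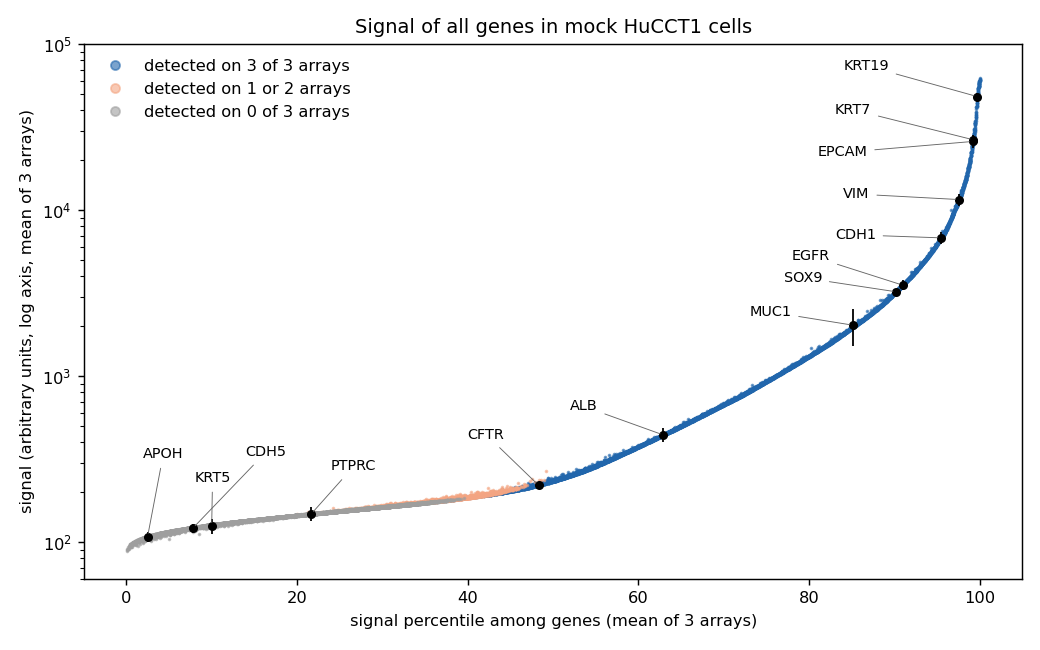
Mean signal (arbitrary units, log axis) of each of 19432 genes against its mean signal percentile over the 3 mock arrays, coloured by the number of arrays that detected it; black points with bars are named genes with mean and SD (n = 3). KRT19, KRT7 and EPCAM lie above the 99th percentile and VIM at 97.5, while KRT5, PTPRC, CDH5 and APOH lie among the undetected genes.

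All 4 defining markers were detected on every array and were bright. KRT19, a keratin of simple and ductal epithelium, read 48289, 50664 and 45661 on arrays 4, 5 and 6, a percentile of 99.7 (log2 level 15.56 ± 0.11, SD, n = 3). KRT7, its partner in duct cells, read 26218, 28212 and 24955, a percentile of 99.2 (14.69 ± 0.08). EPCAM, the epithelial cell adhesion molecule, read 23582, 26174 and 27870, also at 99.2 (14.63 ± 0.11), and all 3 of its probes were detected. VIM, the intermediate filament of mesenchymal cells, read 11027, 10947 and 12692, a percentile of 97.5 (13.48 ± 0.13), with both of its probes detected. The 3 epithelial markers and vimentin thus all stood among the bright genes, on each of the 3 arrays.

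Of 20 measured cholangiocyte markers 12 (60%) were detected on every array, 1 on some and 7 on none, against 55.6% and 34.9% detected on every array and on none over all genes. The detected markers had a median percentile of 78.5, against 72.2 for all detected genes. Besides KRT19, KRT7 and EPCAM, the bright members were the surface glycoprotein CD24, which read 13089, 14398 and 13644, and SOX9, the transcription factor of duct progenitors, which read 3205, 3346 and 3086. MUC1, the transmembrane mucin of the apical face, read 2364, 2267 and 1435. Array 6 was the low one for MUC1, whose SD of 0.41 was the highest of the detected markers. Among these markers, genes of ductal transport had lower signals than the keratins. SLC4A2, a chloride and bicarbonate exchanger, read 685, 846 and 736. CFTR, the chloride channel opened by cyclic AMP, read 219.8, 217.7 and 221.4, and the water channel AQP1 read 201.4, 197.2 and 191.9, both close to the detection limit. The secretin receptor SCTR, the cilium-linked genes PKHD1, BICC1 and DCDC2, the gamma-glutamyl transferase GGT1 and the duct transcription factors ONECUT1 and ONECUT2 were detected on no array. SPP1, osteopontin, was detected on 2 arrays.

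The keratin family was split sharply between a few bright members and many undetected ones. Of 24 measured keratins 10 were detected on every array (41.7%), against 55.6% of all genes. The detected ones had a median percentile of 87.5, against 72.2 for all detected genes. KRT8, the type II partner of simple epithelia, read 15558, 19045 and 14743 on arrays 4, 5 and 6. KRT18, its type I partner, read 1412, 1264 and 1256. KRT80 read 10916, 11050 and 8856, and KRT10, known from the upper epidermis, read 5664, 5838 and 7405. KRT34, KRT13, KRT15 and KRT16 were dimmer, at percentiles from 52.5 to 69.0. The basal keratins KRT5 and KRT14, the intestinal KRT20, the corneal KRT3 and KRT12 and the epidermal KRT1, KRT2 and KRT9 were detected on no array. KRT5 read 138.7, 113.8 and 120.8, below the detection limit on each.

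Junction genes were the lineage group detected most fully. Of 29 measured genes of adherens junctions, desmosomes, tight junctions and their regulators, 25 (86.2%) were detected on every array, against 55.6% of all genes. Of the 25, 16 were at or above the 75th percentile, against 4841 of all 10798 detected genes. E-cadherin (CDH1), the adhesion receptor of epithelial adherens junctions, read 6881, 7324 and 6171 (percentile 95.5). SPINT2, an inhibitor of membrane serine proteases, read 20910, 17903 and 18896. The catenin CTNNA1, which couples cadherins to actin, read 12099, 11412 and 11949, and plakoglobin (JUP) read 6220, 6718 and 5929. CLDN3, OCLN and GRHL1 were detected on 2 arrays, and ESRP2, an epithelial splicing regulator, on none. Among 20 claudins, the strand proteins of tight junctions, 11 (55.0%) were detected, near the 55.6% of all genes. CLDN7 read 10737, 10130 and 10701 and CLDN1 read 6468, 5650 and 4828, whereas CLDN4 read only 274, 302 and 334. CLDN5, CLDN6, CLDN10, CLDN16 and CLDN17 were detected on no array. Of 10 measured mucins 4 were detected (MUC1, MUC20, MUC16 and MUC4). The secreted intestinal MUC2 and the transmembrane MUC13 and MUC17 were not.

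Mesenchymal genes were detected in a smaller share but included bright ones. Of 22 measured genes 9 (40.9%) were detected on every array, 4 on some and 9 (40.9%) on none. Over all genes the shares were 55.6% on every array and 34.9% on none. N-cadherin (CDH2), whose gain marks the epithelial to mesenchymal transition, read 5936, 6271 and 4582 on arrays 4, 5 and 6 (percentile 94.3, log2 level 12.40 ± 0.24). SNAI2, a repressor of E-cadherin, read 2989, 2629 and 2909 (89.1, 11.40 ± 0.12). N-cadherin and E-cadherin thus stood close together in signal rank, at percentiles 94.3 and 95.5. The smooth muscle actin ACTA2 read 679, 742 and 525, and the remaining detected members, S100A4, TAGLN, COL1A1, LUM and FN1, lay between percentiles 44.3 and 64.2. ZEB1, ZEB2 and SNAI1, other repressors of E-cadherin that drive the transition, were detected on no array. ZEB1 read 97.1, 98.3 and 106, a percentile of 1.07. The fibroblast genes COL3A1, THY1, PDGFRB, PDGFRA, DCN and FBN1 were also detected on none.

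Hepatocyte, pancreatic, gut, blood, endothelial and neural markers were mostly not detected on every array, whereas squamous markers were detected about as often as those of bile duct. Hepatocyte markers were detected on every array in 3 of 25 (12%) and on none in 18. SERPINA1, the plasma antitrypsin, read 4617, 4191 and 4196 on arrays 4, 5 and 6. CPS1, the entry enzyme of the urea cycle, read 466, 622 and 562, and albumin (ALB) read 416, 491 and 416 on 1 of its 2 probes. APOH, a plasma apolipoprotein, read 103, 116 and 103. Pancreatic markers were detected in 4 of 15 (26.7%), and the brightest was trypsinogen PRSS1, which has near-identical copies, at 677, 1097 and 1033. Gastric and intestinal markers were detected in 2 of 17 (11.8%), CDX2 and GPA33, both below the 50th percentile, and in 0 of 17 at a detection p under 0.01. Squamous markers were detected in 8 of 13 (61.5%), near the 60% of the bile duct list and the 55.6% of all genes, with 1 at or above the 75th percentile. That gene was SFN, a 14-3-3 protein of epithelia, at 3933, 4351 and 4229.

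Blood markers were detected in 6 of 17 (35.3%), against 55.6% of all genes. The leukocyte antigen PTPRC, CD3D, CD3E, CD4 and CD8A were on no array, and the brightest was CD68, a lysosomal protein that many cell types carry, at 1695, 1962 and 1854. Endothelial markers were detected in 1 of 10 (10.0%), the adhesion molecule ESAM, at 291, 355 and 282. Without array 6 the count was 2. PECAM1, CDH5, VWF and KDR, which define the endothelium, were on no array. Neural markers were detected in 4 of 12 (33.3%), led by the tubulin TUBB3 at 1300, 1879 and 1913 and the enolase ENO2 at 862, 839 and 850.03, while SYP, GFAP and SOX10 were on none.

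**Figure D2:**
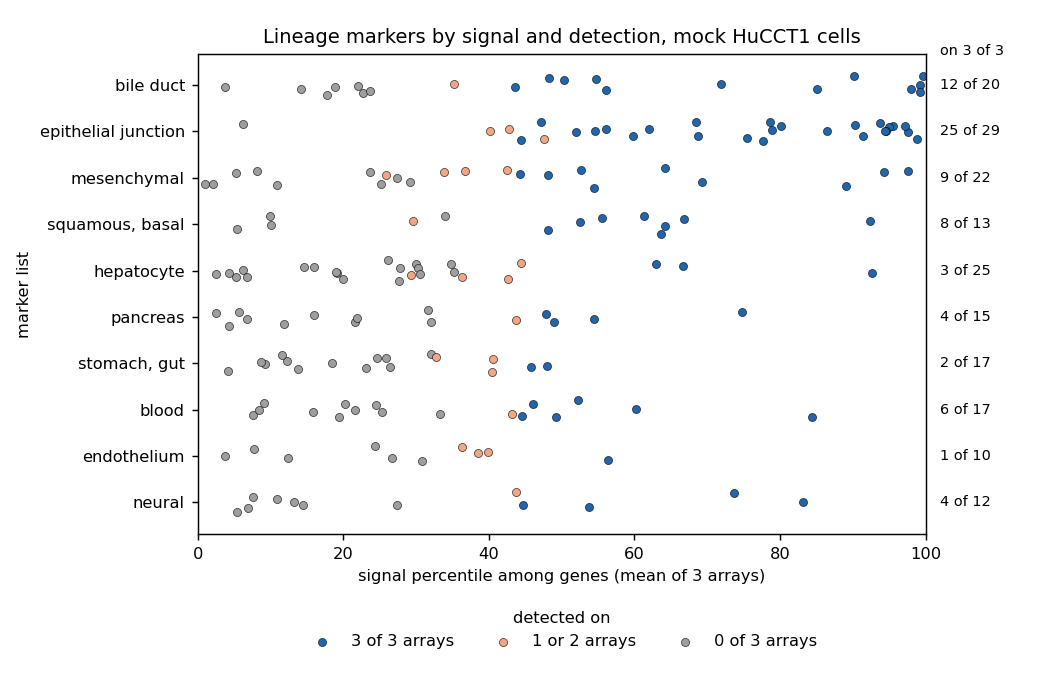
Mean signal percentile over the 3 mock arrays (horizontal axis, among 19432 genes) of the measured members of 10 marker lists (rows, with vertical jitter for legibility), coloured by the number of arrays that detected the gene; the right-hand figures give members detected on 3 of 3 arrays. Most junction genes (25 of 29) lie in the upper part of the scale, and bile duct (12 of 20), squamous (8 of 13) and mesenchymal genes (9 of 22) spread over much of it, whereas most hepatocyte (3 of 25), gut (2 of 17) and endothelial genes (1 of 10) lie at low percentiles.

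Transcription factors of the liver and gut lineages were detected in 15 of 25 cases (60%), close to the share of all genes. CEBPB, a factor of the acute phase and inflammation, read 13362, 13771 and 14936 (percentile 98.1). FOXA2, a pioneer factor of foregut endoderm, read 4854, 4810 and 4575 on 1 of its 3 probes, with the other probes undetected. YAP1, the effector of the Hippo pathway, read 2647, 2493 and 2156. EHF and ELF3, ETS factors of epithelia, stood at percentiles 83.3 and 78.9. GATA4, SOX17, SOX2, PROX1, CEBPA and NKX2-1 were on no array. Among 40 nuclear receptors 17 (42.5%) were detected, against 55.6% of all genes. PPARG, which regulates lipid storage, led them at 4051, 4133 and 3563. Of its 4 probes 2 were detected on every array and 2 on none. The estrogen receptors ESR1 and ESR2, the progesterone receptor PGR and the bile acid linked NR0B2 were on no array.

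Genes of bile acid and anion transport were detected in 10 of 26 cases (38.5%), against 55.6% of all genes. The basolateral exporter ABCC3 read 1658, 1564 and 1478, the calcium-activated chloride channel ANO1 read 1592, 1462 and 1283 with 3 of 3 probes, and the uptake carrier SLCO1B3 read 862, 803 and 732. The hepatocyte uptake carrier SLC10A1, the ductal and ileal carrier SLC10A2, the canalicular exporters ABCB11, ABCB4 and ABCC2 and the bile acid receptor GPBAR1 were detected on no array.

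Surface proteins studied as therapeutic or diagnostic targets were detected in 33 of 39 cases (84.6%), against 55.6% of all genes. Of the 33, 22 were at or above the 75th percentile, against 4841 of all 10798 detected genes. After EPCAM, the brightest was CD44, the hyaluronan receptor, at 19404, 20194 and 18823 on arrays 4, 5 and 6, with 3 of 3 probes. The transferrin receptor TFRC read 13505, 13575 and 13406 (log2 level 13.71 ± 0.02), among the steadiest values here. Tissue factor (F3), the trigger of coagulation, read 7348, 6056 and 5817, and basigin (BSG) read 5116, 6500 and 6037. CEACAM5, NECTIN4, THY1, PDCD1LG2, VTCN1 and GPC3 were on no array. CEACAM5, which encodes the carcinoembryonic antigen, read 135, 168 and 177.

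Integrins, the receptors for extracellular matrix, were detected in 15 of 26 cases (57.7%), near the 55.6% of all genes. ITGB1, the common beta subunit of the collagen, laminin and fibronectin receptors, read 19372, 17999 and 16386 on its brightest probe, and 3 of its 6 probes were detected. ITGA2 and ITGA3, its collagen and laminin binding partners, read 6182, 5249 and 6097, and 6228, 5623 and 4852. ITGB5 read 8367, 7501 and 6944. The leukocyte subunits ITGAL, ITGAM, ITGAX and ITGAD and the platelet subunits ITGA2B and ITGB3 were on no array, whereas ITGB2, the beta subunit that leukocyte integrins share, read 3681, 3672 and 2444. Of 23 genes of antigen presentation 15 (65.2%) were detected, against 55.6% of all genes. Beta-2 microglobulin (B2M), the light chain of class I molecules, read 35224, 39844 and 34538, and HLA-B read 6684, 7741 and 5628, with probes that may also bind other class I genes. CD74, the invariant chain of class II, read 3511, 4445 and 3937, while CIITA, HLA-DPB1, HLA-DQA1 and HLA-DQB1 were on no array.

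Of 38 receptor tyrosine kinases 19 (50%) were detected on every array and 18 on none, near the shares of all genes (55.6% and 34.9%). AXL, the receptor for GAS6, was the brightest at 6506, 7483 and 6137 on arrays 4, 5 and 6 (log2 level 12.68 ± 0.14), with both probes detected. EGFR, the epidermal growth factor receptor, read 3610, 3715 and 3255 (11.72 ± 0.09). Its 4 probes disagreed, 2 being detected on every array and 2 on none. MET, the receptor for hepatocyte growth factor, read 3414, 3031 and 2669, with array 6 lowest. The ephrin receptor EPHA2 read 2371, 2471 and 2356, the pseudokinase RYK read 3143, 3107 and 2985, and the collagen receptor DDR1 read 2143, 2164 and 1791. ERBB2, EPHB4 and ERBB3 followed at percentiles 84.6, 80.2 and 78.7, and of the 3 ERBB2 probes 1 was detected on every array and 2 on none. ERBB4, FGFR1, FGFR2, FGFR4, IGF1R, INSR, KIT, PDGFRA, PDGFRB, FLT1, FLT3, FLT4, KDR, NTRK2, NTRK3, ROS1, DDR2 and EPHB3 were on no array.

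**Figure D3:**
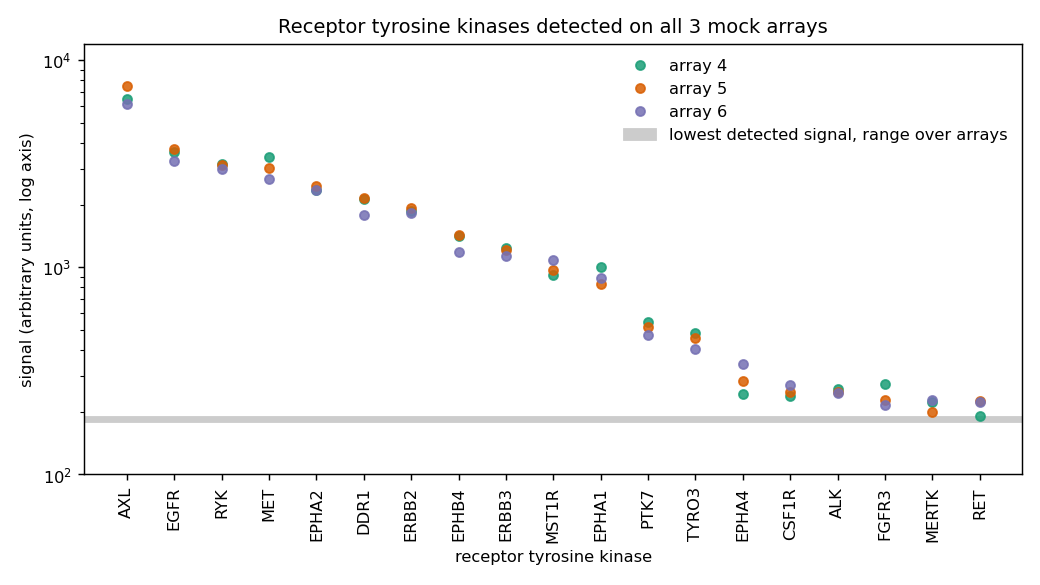
Signal (arbitrary units, log axis) of the 19 receptor tyrosine kinases detected on all 3 mock arrays, 1 point per array; the grey band is the range over arrays of the lowest detected signal, 178.4 to 190.2. AXL is the brightest (6137 to 7483), and ALK, FGFR3, MERTK and RET lie near the band.

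Ligands of these receptors were detected in 15 of 25 cases (60%), near the 55.6% of all genes. The lymphatic growth factor VEGFC read 4327, 4463 and 4677, and GAS6, the ligand of AXL, read 3627, 3567 and 2899 with 3 of 3 probes. The EGFR ligands HBEGF, TGFA and EREG read 3784, 3287 and 4263, then 1986, 1901 and 1947, and then 1394, 1047 and 1392, while EGF and EPGN were on no array. The hepatocyte growth factor gene HGF, which fibroblasts mostly make, was detected on 1 array, so the ligand of MET was near the detection limit while the receptor was bright. FGFBP1, which releases growth factors from the matrix, read 3657, 3269 and 1661, a 2.29-fold range of normalized levels with array 6 lowest. FGF7, FGF10, FGF19, IGF1 and IGF2 were on no array.

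All 20 measured genes of the RAS and ERK pathway were detected on every array, against 55.6% of all genes. Of the 20, 15 were at or above the 75th percentile, against 4841 of all 10798 detected genes. The 20 included feedback and target genes that the pathway is known to induce. PHLDA1 read 16036, 17443 and 15862, FOSL1, an AP-1 subunit, read 7000, 7602 and 8304, and the phosphatases DUSP5 and DUSP6, which act on ERK, read 5637, 4670 and 5106, and 3377, 3006 and 2729. The kinase MAP2K1 read 5342, 5832 and 5161. In the PI3K and mTOR pathway 11 of 15 genes (73.3%) were detected, against 55.6% of all genes. Among the 11 were the GTPase RHEB at 11305, 10248 and 10800.2 and the kinase AKT1 at 6992, 7355 and 7454. PIK3CG, PIK3R3, AKT2 and RICTOR were on no array.

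Of the developmental pathways, TGF-beta was detected most fully and Hedgehog least. Ligands, receptors and effectors of the TGF-beta and BMP pathways were detected in 24 of 31 cases (77.4%), against 55.6% of all genes. The receptor TGFBR2 read 10921, 10197 and 8551, the effectors SMAD3 and SMAD4 read 4723, 4592 and 3619, and 1551, 1445 and 1058, and the ligand BMP4 read 4044, 3629 and 3465 with 3 of 3 probes. In each of TGFBR2, SMAD3, SMAD4 and BMP4 array 6 was the lowest. The probes of the ligand TGFB1 and the receptor TGFBR1 were on no array. Hedgehog genes were detected in 2 of 13 cases (15.4%), HHIP and GLI2, both dim, and in 1 of 13 at a detection p under 0.01. The ligands SHH, IHH and DHH, the receptor PTCH1 and the transducer SMO were on no array.

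Wnt ligands were detected in 4 of 19 cases (21.1%), with none at or above the 75th percentile. They were WNT10A at 736, 707 and 563, WNT7A at 479.9, 455 and 465, WNT7B at 516, 380.4 and 388, and WNT3 at 274, 237 and 248. Wnt receptors, inhibitors and effectors were detected in 19 of 32 cases (59.4%), near the 55.6% of all genes. The secreted inhibitor DKK1 stood far above the rest at 19734, 22029 and 19278 (percentile 98.9), followed by the coreceptor LRP5 at 1865, 1674 and 1705 and the receptor FZD2 at 1564, 1906 and 1229.97. AXIN2, LEF1, NKD1 and RNF43, which Wnt signalling is known to induce in intestine, were on no array, and the stem cell receptor LGR5 was detected on 1. In the Notch pathway 11 of 22 genes (50%) were detected, against 55.6% of all genes. The ligand JAG1 read 1356, 1424 and 1589.96, the receptor NOTCH1 stood at percentile 67.8, and the target HES4 read 4398, 4319 and 5310. NOTCH3, NOTCH4 and the ligands DLL1, DLL3 and DLL4 were on no array.

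Cytokines and chemokines were detected in 29 of 42 cases (69.0%), against 55.6% of all genes. Of the 29, 13 were at or above the 75th percentile, a share near that of all detected genes (4841 of 10798). IL18, an interleukin that epithelia store as a precursor, read 17883, 19410 and 19244 on arrays 4, 5 and 6 (log2 level 14.19 ± 0.07). IL32 read 10174, 13820 and 14424 (13.60 ± 0.27), with array 4 lowest. The neutrophil attractant CXCL5 read 5855, 6966 and 6798, and the related CXCL8 read 2977, 3231 and 2872. IL1A and its receptor antagonist IL1RN read 3461, 3079 and 3653, and 4354, 3623 and 3766. Of the 3 IL1RN probes 1 was detected on every array and 1 on none. IFNG, IFNB1, IL33, CSF3, CXCL3 and CXCL9 were on no array.

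Innate receptors and NF-kappa-B genes were detected in 21 of 31 cases (67.7%), against 55.6% of all genes. The kinase IRAK1 read 18217, 21252 and 20671, the transcription factor NFKB1 read 10033, 8998 and 9677, and its inhibitor NFKBIA read 7171, 6883 and 5849. The receptors TLR1, TLR2, TLR6, TLR7, TLR8, TLR9 and TLR10 and the interleukin receptor IL1R1 were on no array, and TLR3 and TLR4 were detected. Genes of cytokine reception and JAK and STAT signalling were detected in 21 of 30 cases (70.0%), also against 55.6% of all genes. IFNGR2, a subunit of the interferon gamma receptor, read 5887, 4317 and 5235, TYK2 read 2174, 2559 and 2522, and STAT3 read 2367, 2382 and 2260.3 with 3 of 3 probes. IL6R, LIFR, IL2RG and IL7R were on no array.

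Genes of the dividing cell were detected in 29 of 30 cases (96.7%), against 55.6% of all genes. Their median percentile among the detected was 93.5, against 72.2 for all detected genes. Cyclin D1 (CCND1), which drives entry into the cycle, read 27968, 26514 and 31610, and the anaphase activator CDC20 read 21492, 25362 and 25838. The exception was CCND2, on 1 array, and the proliferation antigen MKI67 read only 279, 277 and 307 on its single probe. A list drawn up as genes often altered in bile duct cancers was detected in 20 of 26 cases (76.9%), against 55.6% of all genes. The 20 included MYC at 8004, 8263 and 8822 and IDH1 at 3359, 3142 and 2332. FGFR2, KMT2D, RNF43, ARID1B and TERT were on no array. Genes of stress responses were detected in 21 of 22 cases (95.5%). IER3, an immediate early gene, read 12718, 9809 and 10733, and the heat shock gene HSPA1A, whose near-identical copy is HSPA1B, read 7986, 5659 and 8354.

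Cancer-testis antigens, which are normally restricted to germ cells, were detected in 4 of 22 cases (18.2%), against 55.6% of all genes. SPANXC read 3540.3, 5014 and 4849 and SPANXA1 read 915, 1354 and 1304. These belong to a family of near-identical copies on the X chromosome, so the probe may not tell which member it read. The helicase DDX43 read 663, 493 and 534, and MAGEC2, the fourth, read 188, 200.005 and 206, near the detection limit. MAGEA1, MAGEA3, MAGEA4, MAGEA10, MAGEA12 and MAGEB2 were on no array, and MAGEA6 was detected on 1 array and SSX2 on 2.

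Families grouped by symbol, chosen after their values were seen, gave a yardstick for detection in genes that a duct cell would not be thought to use. Of 383 olfactory receptors 18 (4.7%) were detected on every array, with 2 above the 60th percentile, and of 28 taste receptors none was, 25 being on no array. The dim detected markers INS, HBB and CDX2 stood at percentiles 47.9, 49.3 and 48.0, within the range of the detected olfactory receptors. The bile duct markers CFTR and ANXA4 and the mesenchymal LUM were as dim, at 48.3, 50.4 and 48.1. AQP1 and FN1 stood lower, at 43.5 and 44.3. Among families of housekeeping genes, 34 of 36 proteasome subunits (94.4%), 41 of 45 subunits of NADH dehydrogenase (91.1%) and 50 of 52 translation initiation factors (96.2%) were detected. Zinc finger genes with ZNF symbols were detected in 258 of 476 cases (54.2%) and solute carriers in 204 of 378 (54.0%), both close to the share of all genes. Of 29 HOX factors 8 were detected, and the brightest, HOXB5, read 3745, 3431 and 3483.

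The 3 arrays resembled each other closely, and bright genes were steadier than dim ones. Pearson correlations of log2 levels across the genes detected on every array, which are not independent replicates, were 0.993 for arrays 4 and 5, 0.991 for arrays 4 and 6, and 0.992 for arrays 5 and 6. The median SD of a gene was 0.138 on the log2 scale. It was 0.209 for detected genes below the 60th percentile and 0.095 at or above the 90th. The highest and lowest array of a gene were at least 2-fold apart in 94 of the 10798 genes (0.871%), whose median percentile was 53.8. This count depends on how background is treated: it was 9 with no background correction, 32 with an offset of 50 and 7 in the authors' processed table.

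The genes with the largest ranges were mostly dim. The chemokine gene CCL3L3, which has near-identical copies, read 214, 333 and 449 on arrays 4, 5 and 6, a 3.46-fold range of normalized levels. The myosin kinase MYLK read 356, 398 and 221, and the chemoattractant RARRES2 read 344, 275 and 207. Then came MIR221, SNORD14D, NIPAL1, SCARA3, SPOCK2, LOXL4, TMEM135, CARD9 and TNFAIP8L1. Of these 12, SPOCK2, a matrix proteoglycan, alone stood above the 75th percentile, at 1790.1, 1874 and 754. Array 6 was the array farthest from the median in 57 of the 94 genes, lower in 40 and higher in 17. Array 5 was farthest in 22 and array 4 in 15. Over all detected genes array 6 was farthest in 39.3%. Among 12 of the 94 genes at or above the 75th percentile, array 6 was the lowest in all 12. The count of 94 was 17 without array 6, 49 without array 4 and 49 without array 5. Leaving out an array cannot raise this count. The 12 were SPOCK2, SCD, FGFBP1, HMGCS1, IFITM1, MX1, CYBRD1, PLAC8, IFIT1, UBD, TNFRSF6B and LAMA5, and they included genes of sterol and fatty acid synthesis and genes of the interferon response.

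A list of sterol and fatty acid synthesis genes, drawn up after these values were seen, was detected in 25 of 26 cases (96.2%), against 55.6% of all genes. Of the 25, 24 were lowest on array 6. Over all detected genes 3774 of 10798 were lowest on array 6. SCD, the desaturase that makes monounsaturated fatty acids, read 12908, 11379.7 and 5642 on arrays 4, 5 and 6 (log2 level 13.17 ± 0.66). HMGCS1, which makes the precursor of mevalonate, read 2906, 3103 and 1400 (11.10 ± 0.66). INSIG1, the sterol sensor's anchor in the endoplasmic reticulum, read 4070, 3743 and 2126 (11.57 ± 0.52). For each of these, arrays 4 and 5 lay close together and array 6 stood apart below them. The fatty acid synthase FASN moved less, at 11551, 11575 and 8794. The exception was PMVK, lowest on array 4. The median over the list of array 6 minus the mean of the other arrays was -0.42 on the log2 scale. Taken as a deviation from the mean of the 3 arrays, the median of array 6 was -0.28 for the list and 0.005 over all detected genes. No cause of this pattern was tested. What the p4, p5 and p6 of the titles mark is not stated, and a difference in passage, culture or handling between the arrays cannot be told apart.

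A list of interferon-response genes, also drawn up after these values were seen, was detected in 45 of 48 cases (93.8%), against 55.6% of all genes. Of the 45, 37 were highest on array 5, against 3247 of all 10798 detected genes, and 31 were lowest on array 6. IFI27, the brightest, read 25426, 40052 and 27376 on arrays 4, 5 and 6 (log2 level 14.88 ± 0.34). MX1, a GTPase that blocks viruses, read 5389, 8398 and 4000.2 (12.44 ± 0.54). IFIT1 and IFIT3, which bind viral RNA or the proteins that do so, read 2121, 2932 and 1448, and 1514, 1975 and 1286. ISG15, a ubiquitin-like modifier, read 7812, 11679 and 9160 (13.18 ± 0.29). Array 5 was the highest for all of these, and array 6 the lowest for MX1, IFIT1 and IFIT3. The median over the list of array 5 minus the mean of the others was 0.402 on the log2 scale, and its deviation from the mean of the 3 arrays was 0.268, against 0.003 over all detected genes. The response genes were thus detected in mock cells on every array, at a median percentile of 82.3, while IFNB1 and IFNG were on no array.

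**Figure D4:**
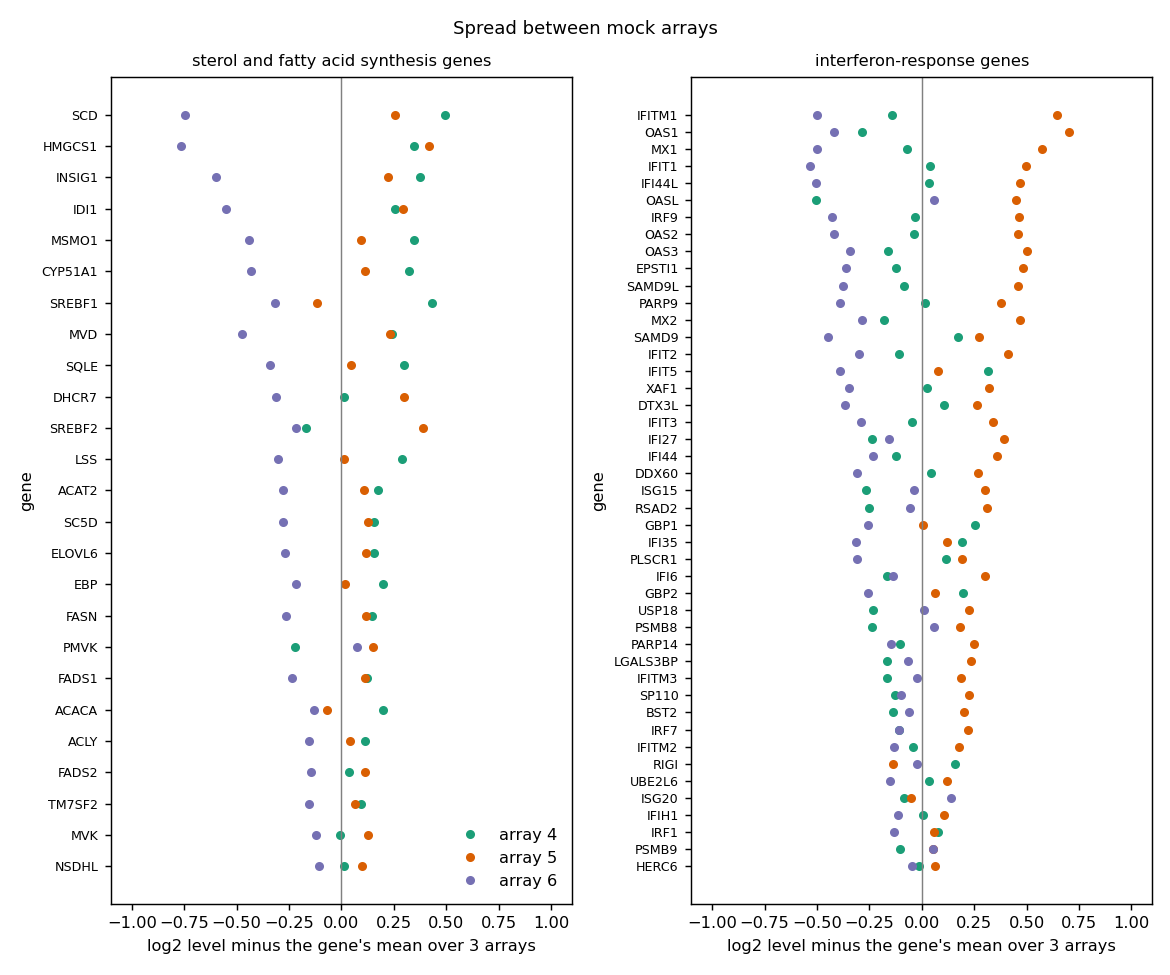
Log2 level on each mock array minus the mean of the gene over the 3 arrays (horizontal axis), for 25 detected genes of sterol and fatty acid synthesis (left) and 45 detected interferon-response genes (right), ordered by range. Array 6 is the lowest point for 24 of 25 genes on the left, and array 5 the highest for 37 of 45 on the right.

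Promoters of the interferon and sterol lists were set beside those of all genes as a description. The interferon list holds known response genes, so a high share of an interferon element follows from the choice of list. Both lists and the words searched were chosen after the values were seen. The shares are therefore no test of the spread between arrays. The word GAAANNGAA, a short form of the interferon-stimulated response element, was searched on both strands of RefSeq promoters (GRCh38.p14), each of 300 bases, from 250 before to 50 after the start of the gene. It occurred in 25 of 39 promoters of the list (64.1%), in 978 of 14159 promoters of coding genes with a probe (6.91%) and in 8.29% of all promoters of the table. With 1 further A at its end it occurred in 24 of 39 (61.5%), against 3.09% of coding genes with a probe. The sterol element word TCACNCCAC occurred in 1 of 23 sterol promoters (4.35%), that of SREBF2, against 1.16% of coding genes with a probe and 1.15% of the table. The 4 promoters that follow are those of 4 of the response genes whose signals are given above, with matches to GAAANNGAA or its reverse complement in capitals. IFIT1 and IFIT3 lie on chromosome 10, MX1 on chromosome 21 and ISG15 on chromosome 1, each on the plus strand, at chr10:89392373-89392672, chr10:89327747-89328046, chr21:41420308-41420607 and chr1:1013247-1013546.
IFIT1: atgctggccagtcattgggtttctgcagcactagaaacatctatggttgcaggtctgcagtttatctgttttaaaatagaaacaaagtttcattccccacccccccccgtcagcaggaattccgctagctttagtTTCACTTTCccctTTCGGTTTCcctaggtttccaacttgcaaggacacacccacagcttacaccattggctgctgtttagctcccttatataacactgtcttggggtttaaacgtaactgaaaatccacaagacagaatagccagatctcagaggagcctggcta
IFIT3: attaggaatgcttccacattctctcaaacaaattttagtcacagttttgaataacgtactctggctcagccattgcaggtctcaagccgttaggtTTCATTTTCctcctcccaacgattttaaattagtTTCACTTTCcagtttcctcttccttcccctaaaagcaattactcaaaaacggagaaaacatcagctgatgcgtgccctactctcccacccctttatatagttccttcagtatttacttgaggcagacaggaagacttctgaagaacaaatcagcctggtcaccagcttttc
MX1: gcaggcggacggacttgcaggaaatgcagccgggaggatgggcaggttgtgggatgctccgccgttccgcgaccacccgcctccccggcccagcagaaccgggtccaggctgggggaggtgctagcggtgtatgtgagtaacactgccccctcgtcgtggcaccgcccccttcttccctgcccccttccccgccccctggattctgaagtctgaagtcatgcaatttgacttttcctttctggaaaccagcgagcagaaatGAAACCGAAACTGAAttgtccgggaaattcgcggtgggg
ISG15: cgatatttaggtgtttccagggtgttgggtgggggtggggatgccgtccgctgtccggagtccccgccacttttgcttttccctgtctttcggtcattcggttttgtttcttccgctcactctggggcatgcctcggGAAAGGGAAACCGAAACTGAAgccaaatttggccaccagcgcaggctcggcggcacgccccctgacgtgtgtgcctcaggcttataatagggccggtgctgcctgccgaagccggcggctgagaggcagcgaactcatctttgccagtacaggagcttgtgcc
The word occurred at 2 separate places in IFIT1 and in IFIT3, as 2 overlapping matches in MX1 and as 3 overlapping matches in ISG15. A match is a description of the sequence and does not show that the element was bound.

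Over all genes, promoters of detected genes were richer in CpG than those of undetected ones. A promoter was found for 14159 of 16807 coding genes outside chromosome 8 (84.2%). For this and every other promoter result, only the first start listed for a gene was used. Which start the cells used was not tested. The median ratio of observed to expected CpG was 0.84 for genes detected on every array (8600 promoters). It was 0.65 for genes detected on 1 or 2 arrays (1296) and 0.48 for genes detected on none (4263). Over the 14159 coding genes together it was 0.78, and over all 27305 promoters of the table, a wider set, 0.58. At a detection p under 0.01 the medians were 0.85 for detected and 0.51 for undetected genes. The word TATAAA, searched on both strands, occurred in 5.65% of the promoters of detected genes and in 15.9% of those of undetected genes, against 12% of the table. GGGCGG, the core of the Sp1 element, occurred in 69.9% and 42.8%, against 44.6% of the table. CCGGAAG, an ETS word, occurred in 19.6% and 6.5%, against 10.7%. CCAAT differed little, at 37.1% and 35.2%, against 35.7%, and the AP-1 word TGACTCA occurred in 3.1% and 4.5%, against 4.92%. Over the 14159 coding genes, from which both classes were drawn, TATAAA occurred in 9.25% and GGGCGG in 60%. CCGGAAG occurred in 14.7% of them, CCAAT in 36.6% and TGACTCA in 3.6%. Undetected genes thus lay below this share for GGGCGG, and the 2 classes lay on either side of it for TGACTCA.

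**Figure D5:**
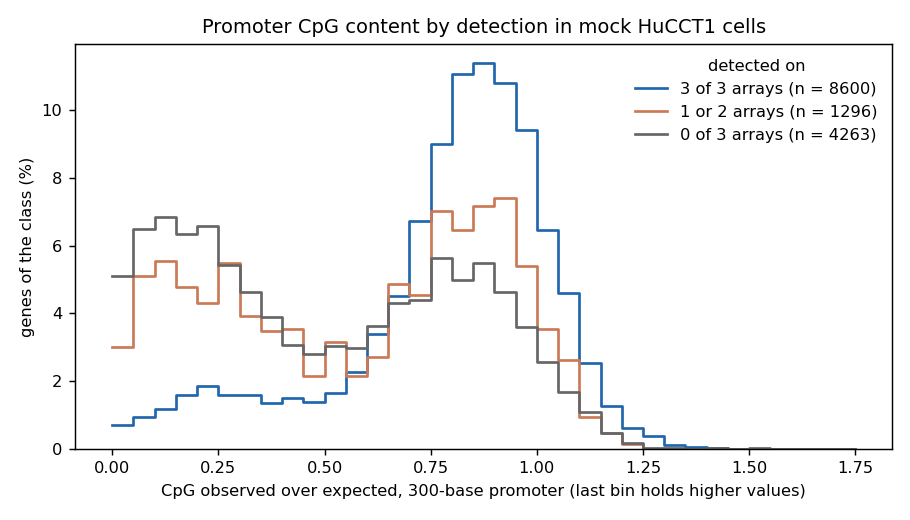
Distribution of the ratio of observed to expected CpG in 300-base RefSeq promoters, as a share of the genes of each detection class (vertical axis, %), for coding genes detected on 3 of 3, 1 or 2 and 0 of 3 mock arrays. The median is 0.84 for the detected class and 0.48 for the undetected class, whose genes fall into a CpG-poor and a CpG-rich group.

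Genes at or above the 90th percentile (1619 promoters) had a median CpG ratio of 0.86, with quartiles of 0.75 and 0.97, and TATAAA in 5.87%. Some lists, counted here over all members with a promoter, detected or not, differed from that. Over all coding genes with a probe the share with TATAAA was 9.25%. Promoters of the pancreatic list held TATAAA in 6 of 12 cases (50%), the highest share of the 36 lists. Those of keratins held it in 6 of 13 (46.2%) and those of the cytokine list in 12 of 32 (37.5%). Those of stress genes held it in 6 of 20 (30.0%) and those of liver and gut transcription factors in 5 of 17 (29.4%). Those of the RAS and ERK list held it in 0 of 15. Those of ribosomal protein genes held it in 2 of 30 (6.67%), and their median CpG ratio was 0.92 against 0.14 for keratins and 0.2 for cytokines. In the promoters that follow, CG and TATAAA are in capitals. They are examples of high and low CpG content among detected genes (EGFR, KRT8 and CXCL8) and of low content among undetected ones (KRT5 and APOH). They lie at chr7:55018767-55019066 on the plus strand, chr12:52926420-52926719 on the minus strand, chr4:73740319-73740618 on the plus strand, and chr12:52520345-52520644 and chr17:66229366-66229665 on the minus strand.
EGFR: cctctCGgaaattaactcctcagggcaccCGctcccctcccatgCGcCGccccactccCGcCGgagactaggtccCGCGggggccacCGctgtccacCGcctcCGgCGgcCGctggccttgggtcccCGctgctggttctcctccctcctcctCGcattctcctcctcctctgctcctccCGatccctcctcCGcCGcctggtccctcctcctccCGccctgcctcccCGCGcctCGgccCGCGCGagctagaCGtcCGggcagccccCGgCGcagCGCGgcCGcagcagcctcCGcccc
KRT8: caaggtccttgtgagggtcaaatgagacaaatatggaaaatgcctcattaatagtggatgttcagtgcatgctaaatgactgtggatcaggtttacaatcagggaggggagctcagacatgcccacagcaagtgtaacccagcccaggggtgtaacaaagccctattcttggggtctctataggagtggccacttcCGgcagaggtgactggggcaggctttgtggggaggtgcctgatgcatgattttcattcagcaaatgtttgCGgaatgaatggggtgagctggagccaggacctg
CXCL8: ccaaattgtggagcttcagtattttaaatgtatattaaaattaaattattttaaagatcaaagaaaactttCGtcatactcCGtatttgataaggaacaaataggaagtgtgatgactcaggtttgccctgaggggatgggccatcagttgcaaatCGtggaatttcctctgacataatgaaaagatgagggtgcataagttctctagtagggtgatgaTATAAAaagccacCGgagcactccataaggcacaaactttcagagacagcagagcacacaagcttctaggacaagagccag
KRT5: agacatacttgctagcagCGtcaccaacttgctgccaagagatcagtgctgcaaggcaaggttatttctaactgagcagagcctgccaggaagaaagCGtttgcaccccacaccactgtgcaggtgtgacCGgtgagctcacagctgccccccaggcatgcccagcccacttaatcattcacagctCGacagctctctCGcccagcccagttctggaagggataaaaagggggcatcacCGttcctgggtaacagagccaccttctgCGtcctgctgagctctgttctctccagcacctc
APOH: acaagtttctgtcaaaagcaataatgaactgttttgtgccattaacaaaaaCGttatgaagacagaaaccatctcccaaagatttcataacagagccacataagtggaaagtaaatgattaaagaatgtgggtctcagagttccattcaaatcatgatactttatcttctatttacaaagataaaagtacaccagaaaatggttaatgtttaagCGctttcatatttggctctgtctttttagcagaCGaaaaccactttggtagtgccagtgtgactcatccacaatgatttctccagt
EGFR held 33 CG pairs, against 2 in KRT8 and 4 in CXCL8 among the detected genes, and 7 in KRT5 and 3 in APOH among the undetected ones. CXCL8 alone held TATAAA. KRT8, with the fewest CG pairs of the 5, was the brightest of them, but whether its signal came from this start was not tested. The promoters of KRT7, KRT19, EPCAM and CCND1 were not analysed here.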

How the data were processed

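Total RNA of mock HuCCT1 cells was read on 3 Illumina bead arrays, and group and array number came from the sample titles. The authors deposited a table of bead intensity on the linear scale, before normalization, and beside each intensity a detection p-value, per the file headers. The submitters' processing notes name BeadStudio 3.3; a background subtraction is not stated. The lowest signal of an array was 65.0 to 78.2. The authors' processed table, from its values a linear intensity scale brought to 1 distribution, served as an alternative and listed 29285 of the 29377 probes. Of these, 27988 carried 1 symbol in the platform annotation, 1297 carried no symbol and 0 carried more than 1, and 27819 symbols were updated by gene identifier from the RefSeq table (GRCh38.p14).

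Log2 levels were made from the 3 mock arrays alone with the function neqc (limma 3.58.1, R 4.3.3; normexp background correction, an offset of 16, quantile normalization). Signals, ranks and detection were taken from the table before normalization. Where a gene had more than 1 probe, its signal, level and rank were those of the probe with the highest mean log2 level. Of 5720 genes with several probes, 1632 had 1 probe detected on 3 arrays and another on 0. No groups were compared and no test was made, and precision is limited by the 3 arrays. The counting was tested on simulated data.

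The text names KRT7, KRT19, EPCAM, VIM and WTAP, the 25 brightest genes, the 12 with the largest range between arrays, and of each of 36 gene lists up to 6 of the brightest detected genes, up to 6 undetected genes in list order and genes detected on 1 or 2 arrays. Members of the lists of receptors, ligands, keratins, mucins, claudins and integrins could also be named. The members and lists were chosen with earlier results of these data known. The lists of sterol and interferon genes, the families by symbol, the promoter words GAAANNGAA and TCACNCCAC, the promoters printed and other genes outside the rule, such as the 12 bright variable genes, TLR3, TLR4, NOTCH1, MKI67 and HOXB5, were chosen after their values were seen. Some members of the lists are not reported here, and counts are over the measured members.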

Additional observations from a re-analysis of the deposited data

How the results depend on the processing

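Of 270 alternatives run over 64 results, 246 left the result within its margin and 24 moved it. The margin was 1.5 times for counts and the SD between arrays for the abundance ranks. For the median SD, the sterol and interferon differences and the CpG ratios it was an SD across genes. A reversal could be scored only for the sterol and interferon differences, and 0 occurred. Genes detected on all arrays numbered 9884 at a detection p under 0.01 and 10300 with Benjamini-Hochberg adjustment within each array, and genes on no array 8196 and 7602. The count of genes at least 2-fold apart, 94, was 9 with no background correction, 32 with an offset of 50, 7 in the authors' processed table, 281 over all genes with a probe, and 17 to 49 with 1 array left out. The causes were not tested, but the last count rests on pairs of arrays. At a detection p under 0.01 the gastric and intestinal list fell to 0 genes and the Hedgehog list to 1, and without array 6 the endothelial list held 2. Among lists whose counts stayed within 1.5 times, the same threshold took the bile duct list from 12 to 10 and the integrins from 15 to 12. It took the bile acid and anion transport list from 10 to 7. With the median over the probes of a gene, KRT7 stood at percentile 99.5, KRT19 at 99.8 and EPCAM at 99.0. Ranked among detected genes only, they stood at 98.6, 99.4 and 98.5, and VIM at 95.6. Array 6 minus the others in sterol genes ran from -0.443 to -0.385 over its alternatives, and array 5 minus the others in interferon genes from 0.323 to 0.441. Of the families, 7 olfactory receptors, 1 keratin-associated gene, 4 protocadherins and 15 potassium channel genes were detected at a detection p under 0.01. No paired analysis was possible because 1 group was described and the values come from no test. Signal over background limits every call near the detection limit, and the 1632 genes with discordant probes limit what detection on no array can say.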

Other observations

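Some bright signals rested on 1 probe of several. LAIR1, an inhibitory receptor of leukocytes, read 55474, 56645 and 57633 on arrays 4, 5 and 6 with 1 probe and 142, 175 and 166 with the other, which was detected on none. IL10, an interleukin of leukocytes, read 2885, 2306 and 3085 with 1 probe and 126, 145 and 145 with the other. The potassium channel gene KCNH6 read 11041, 8066 and 10713 with 1 of its 3 probes, the only one of them detected on every array. The sequences of these probes were not used here, and the transcripts they read were not tested.

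Of 1297 probes with no gene symbol, 626 (48.3%) were detected on every array. The share of genes detected on every array was 44.4% on chromosome X and ran over the autosomes from 51.2% on chromosome 21 to 62.9% on chromosome 16.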
